A study of Mus musculus with 63 samples.

Results

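The canonical WNT pathway was followed in small intestinal tumours through 10 genes. They were *Apc*, *Axin1*, *Axin2* and *Gsk3b* of the β-catenin destruction complex, *Ctnnb1*, which encodes β-catenin, the TCF/LEF factors *Tcf7*, *Tcf7l1*, *Tcf7l2* and *Lef1*, and the downstream gene *Myc*. They were chosen by symbol, and all 10 were found among the 24766 genes of the expression table and had a mean normalised count of at least 10 in every comparison. Bulk RNA sequencing covered 63 libraries from tumours of 2 mice, 1 female and 1 male, on a C57BL/6 background. Both carried Villin-creERT2, which is active in the intestinal epithelium only, 1 floxed and 1 wild-type *Apc* allele, and the R26R-Confetti reporter. This reporter is a multicolour label, activated sporadically, by which lineages are traced. Mice at least 8 weeks old received 4 mg tamoxifen, which deletes the floxed allele, and 200 mg/kg of the mutagen ENU 10 days later, so no library came from untreated or *Apc* wild-type tissue. From 20 heterotypic tumours (mixed for Confetti: several colours, or a colour next to unlabelled glands), the major (larger) and the minor (smaller) clone were dissected and sequenced separately, 10 tumours in each mouse. Another 23 tumours (female mouse 10, male mouse 13) were sequenced undivided. The study's group of monoclonal tumours is smaller than this, and which of the undivided libraries belong to it is not given in the sources used here, so all 23 were used. Tumours came from the segments labelled SI10, SI20 and SI30 of the small intestine. The tumours were taken from only 2 animals, so the spread between tumours is not a spread between animals, and a difference between the mice cannot be told apart from one of sex.

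In cells without a WNT signal, the destruction complex binds β-catenin, and its kinases mark the protein for degradation. APC and the AXIN proteins are its scaffolds. GSK3β and casein kinase 1 phosphorylate β-catenin. When the complex fails, as it does when both *Apc* alleles are lost in intestinal tumours, β-catenin accumulates, enters the nucleus and joins TCF/LEF factors on DNA. TCF7L2 is the factor on which the normal intestinal crypt depends, TCF7L1 acts mostly as a repressor, and TCF7 and LEF1 occur in long forms that bind β-catenin and short forms that do not. *Axin2* is both a member of the complex and a direct target that feeds back on the pathway, and *Myc* is a target in intestinal tumours that drives growth. The complex controls β-catenin as a protein, and RNA levels do not report it. Values per gene also pool every transcript of a gene: they show neither which *Apc* allele was transcribed nor whether an exon was missing, and they pool the long and short forms of *Tcf7* and *Lef1*.

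The summed normalised count of the 63 libraries ran from 26140227 to 45909885, and because the values had been scaled between libraries these sums are not sequencing depths. Epithelial marker genes (8 genes) were detected in every library, summing to 175067 to 725584 normalised counts. T cell genes (14 genes) summed to 451 to 2552, and stromal genes (10 genes) to 1052 to 29059, so every library also held RNA of other cells. In bulk tissue, fewer cells of a type and less RNA per cell cannot be told apart.

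Genes were compared with each other on a scale of normalised count per kilobase of exon. The length was that of all annotated exons of a gene together, not of the transcripts expressed. The order and the shares below depend on that choice. On this scale *Ctnnb1* was far the most abundant of the 10, with a median of 4867 over the 63 libraries (2259 to 6805). It was above *Myc* in 63 of 63 libraries, by a median ratio of 5.34. *Myc* followed at 910, *Axin2* at 598, *Tcf7* at 345, *Gsk3b* at 270, *Axin1* at 192 and *Apc* at 115. The last 3 were *Tcf7l2* at 70.8, *Lef1* at 22.6 and *Tcf7l1* at 10.36. Most neighbours in this order kept their rank in nearly all libraries, but the gap between *Tcf7* and *Gsk3b* was narrow: *Tcf7* was higher in 49 of 63 libraries, by a median ratio of 1.28. *Lef1* was above *Tcf7l1* in 52 of 63 libraries. Among the 4 TCF/LEF factors, *Tcf7* made up 74.9% ± 6.74 (SD, n = 63) of the summed level per kilobase, *Tcf7l2* 17% ± 6.95, *Lef1* 5.41% ± 2.01 and *Tcf7l1* 2.68% ± 1.63.

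The genes differed widely in how much they varied. *Axin1* was the steadiest, with 1182 to 2246 normalised counts and a highest-to-lowest ratio of 1.9, followed by *Gsk3b* at 2.31 and *Ctnnb1* at 3.01. *Tcf7l1* ranged from 4.23 to 166, a ratio of 39.3, and *Lef1* from 34.3 to 676, a ratio of 19.7. For *Apc* the range was 788 to 4435 (ratio 5.63), for *Axin2* 1536 to 9726 (6.33), for *Tcf7* 429 to 2618 (6.1), for *Tcf7l2* 295 to 1105 (3.75) and for *Myc* 1139 to 5250 (4.61). The extremes fell in a few libraries. The undivided male tumour 8 had the lowest *Apc* and *Tcf7l1* of all 63, the undivided male tumour 2 the lowest *Axin2* and *Myc* together with the highest *Tcf7l2*, and the undivided female tumour 3 the highest *Axin2*, *Tcf7* and *Ctnnb1*. The major clone of female tumour 22 had the lowest *Tcf7* and *Lef1*, and the major clone of male tumour 19 the lowest *Gsk3b* and *Tcf7l2*.

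Profiling both clones of a tumour asks what distinguishes cells that grew to a larger share from their neighbours in the same lesion. None of the 10 genes differed between major and minor clones. In limma with tumour as a block, 0 of 10 passed an adjusted p of 0.05 (Benjamini-Hochberg over all genes), where 1.14% of the 16428 genes tested did, and 1 of 10, *Tcf7l1*, had an unadjusted p under 0.05, as did 3680 of the 16428. With a background this low, 0 of 10 is not a result about these genes, and the intervals below give the sizes that remain possible. All 10 ranges overlapped between the classes.

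**Figure D1:**
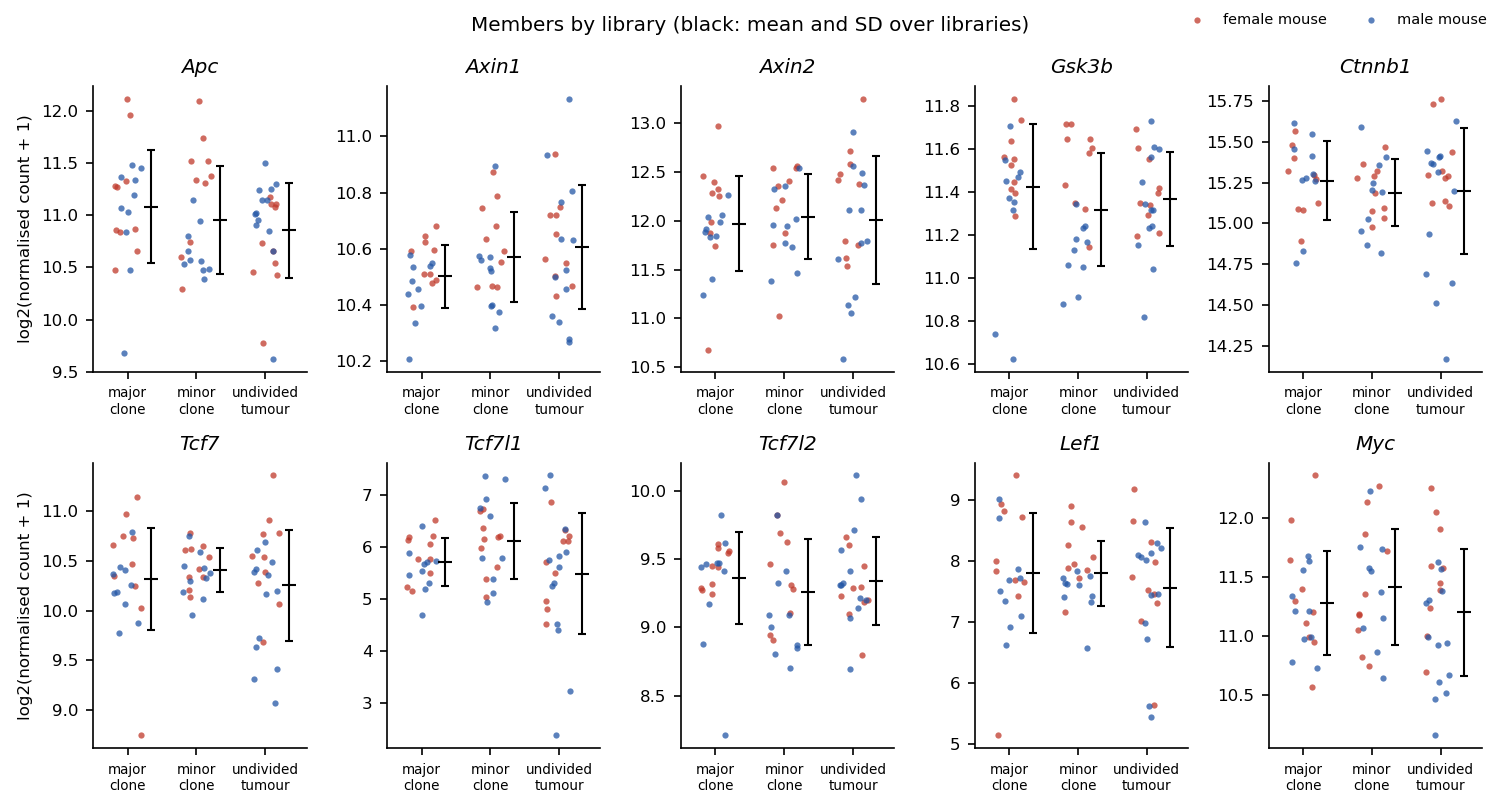
Levels of the 10 genes as log2(normalised count + 1) on the vertical axis, 1 point per library, in 20 major clones, 20 minor clones and 23 undivided tumours, with points of the female mouse in red and of the male mouse in blue and the mean and SD of each class in black. The 3 classes overlap for every gene, while single libraries of *Lef1* and *Tcf7l1* lie far below the rest.

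In the destruction complex, *Apc* was at 817 to 4435 normalised counts in major clones (median 2247) and at 1251 to 4374 in minor clones (median 1746). It was higher in the major clone of 11 of 20 tumours, and its log2 difference was 0.13 (95% interval -0.16 to 0.41, adjusted p = 0.615). The 2 mice gave unlike values: *Apc* was higher in the major clone in 8 of 10 male tumours and in 3 of 10 female tumours, with mean log2 differences of 0.34 and -0.09. The difference between those 2 means was not beyond the spread (-0.42 with SE 0.27, adjusted p = 0.734 in limma). *Gsk3b*, the kinase, had a median of 2814 in major and 2490 in minor clones, with a log2 difference of 0.11 (-0.01 to 0.22, adjusted p = 0.282). *Axin1* and *Axin2* had log2 differences of -0.07 (-0.16 to 0.02, adjusted p = 0.347) and -0.07 (-0.24 to 0.09, adjusted p = 0.624). For *Ctnnb1*, medians were 40032 in major and 37678 in minor clones, and it was higher in the major clone of 14 of 20 tumours (0.07, -0.03 to 0.18, adjusted p = 0.39). The intervals of *Axin1*, *Gsk3b* and *Ctnnb1* were the narrowest and lay within 0.25 on the log2 scale.

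Among the TCF/LEF factors, *Tcf7l1* came closest to a difference. It was at 24.8 to 91.7 in major clones (median 52.3) and at 30.02 to 165 in minor clones (median 71.5), and its log2 difference was -0.41 (-0.82 to -0.00261, p = 0.0487, adjusted p = 0.22). The largest single gap was in male tumour 20, with 24.8 in the major and 165 in the minor clone, and *Tcf7l1* was higher in the major clone of 8 of 20 tumours. *Lef1* had a small mean log2 difference with a wide interval, 0.01 (-0.43 to 0.45, adjusted p = 0.986). Its clone differences scattered most, with an SD of 1.03 on the log2 scale, against 0.16 for *Axin1*. *Lef1* was 34.3 in the major and 231 in the minor clone of female tumour 22, and 517 in the major and 160 in the minor clone of male tumour 29. *Tcf7* differed by -0.08 (-0.30 to 0.13, adjusted p = 0.674) and *Tcf7l2* by 0.10 (-0.08 to 0.29, adjusted p = 0.519). *Tcf7* and *Lef1* also covered a wider range in major clones (429 to 2253 and 34.3 to 676) than in minor clones (990 to 1751 and 94.1 to 477). That contrast of ranges was noticed in the values and was not tested.

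*Myc* was at 1515 to 5250 in major clones (median 2367) and at 1600 to 4930 in minor clones (median 2632). It was higher in the major clone of 8 of 20 tumours, with a log2 difference of -0.13 (-0.36 to 0.09, adjusted p = 0.48). The largest gaps ran both ways, from -0.87 in female tumour 30 to 1.03 in male tumour 28.

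**Figure D2:**
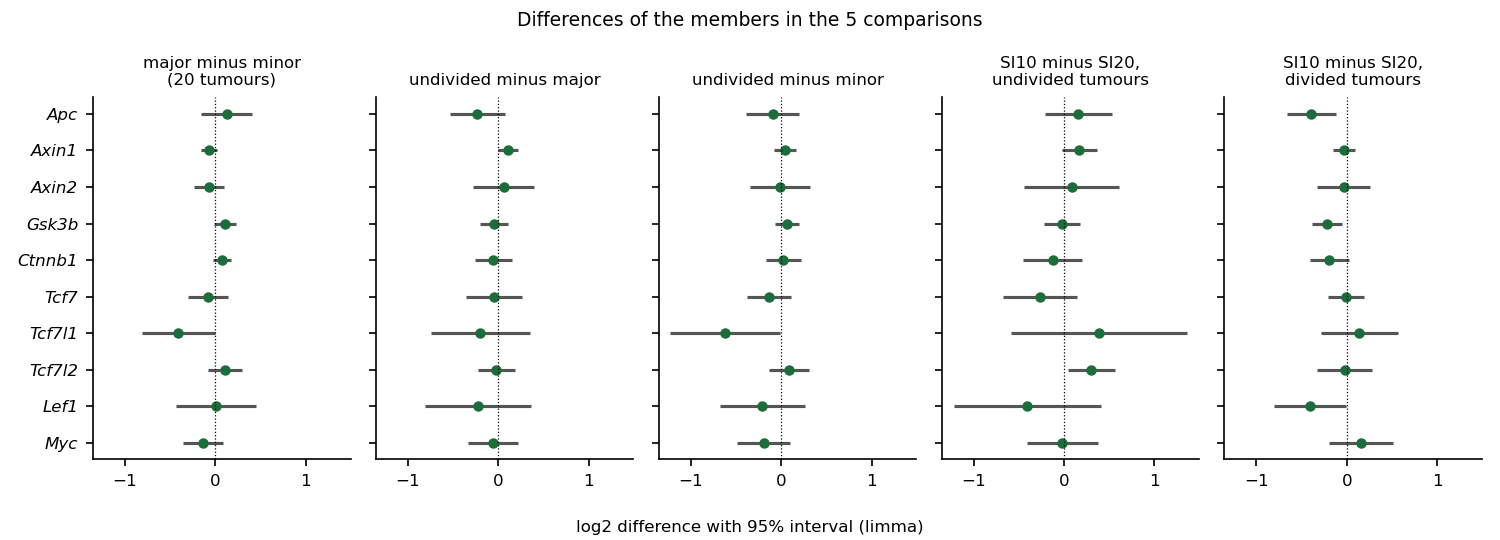
Log2 differences of the 10 genes (horizontal axis; points, with 95% intervals from limma as lines) in the 5 comparisons, with genes on the vertical axis and 0 marked by a dotted line. Most intervals include 0; *Tcf7l1* and *Lef1* have the widest, and no gene had an adjusted p under 0.05.

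Undivided tumours were compared with each class of clone; both comparisons use the same 23 undivided tumours, so they are not independent. Against major clones, 0 of 10 genes passed (0.0121% of 16510 genes did, which is 2 genes), and none had an unadjusted p under 0.05. Against minor clones, 0 of 10 passed where 3.7% of 16491 genes did, and 1 of 10 had an unadjusted p under 0.05, as did 3226 of all genes. That gene was again *Tcf7l1*, at 4.23 to 166 in undivided tumours (median 51.4), with a log2 difference of -0.62 from minor clones (-1.22 to -0.02, p = 0.0439, adjusted p = 0.24) and of -0.20 from major clones (-0.75 to 0.35, adjusted p = 0.776). *Apc* had a median of 2059 in undivided tumours (788 to 2889), -0.23 from major clones (-0.53 to 0.07, adjusted p = 0.52) and -0.09 from minor clones (-0.38 to 0.20, adjusted p = 0.79). *Axin2* had a median of 4420 (1536 to 9726), with differences of 0.06 and -0.01 from the 2 classes (adjusted p = 0.897 and 0.979). *Myc* had a median of 2484 (1139 to 4877), with differences of -0.06 and -0.19 (adjusted p = 0.88 and 0.502). For *Ctnnb1*, *Gsk3b*, *Axin1*, *Tcf7*, *Tcf7l2* and *Lef1*, log2 differences ran from -0.23 to 0.11 against major and from -0.21 to 0.09 against minor clones.

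Segments were compared separately in undivided tumours (12 from SI10 and 11 from SI20) and in divided tumours, as the mean of both clones of the 17 tumours whose clones shared 1 of these 2 labels. No member passed in either: 0 of 10 in undivided tumours, where 0.17% of 16511 genes did, and 0 of 10 in divided tumours, where 0.28% of 16436 genes did. In divided tumours, 3 of 10 had an unadjusted p under 0.05, as did 2358 of the 16436. *Apc* was at 817 to 3989 in SI10 major clones (median 1835) and at 1615 to 4435 in SI20 major clones (median 2570), and in minor clones at 1435 to 2939 (median 1632) and 1343 to 4374 (median 1876). These ranges, which include the clones of the tumour with 2 segment labels, overlapped, and in the fit without it the log2 difference of SI10 from SI20 was -0.39 (-0.66 to -0.12, p = 0.00697, adjusted p = 0.228). It became -0.50 with an adjusted p of 0.0327 when female tumour 23 was left out, so this call depends on 1 tumour; its adjusted p ranged from 0.0327 to 0.997 over the alternatives tried. *Gsk3b* differed by -0.22 (-0.38 to -0.05, p = 0.0143, adjusted p = 0.271) and *Lef1* by -0.41 (-0.81 to -0.00598, p = 0.047, adjusted p = 0.344). In undivided tumours *Apc* had the other sign (0.16, -0.21 to 0.53, adjusted p = 0.847), and the smallest p belonged to *Tcf7l2*, with a median of 666 in SI10 and 586 in SI20 and a log2 difference of 0.30 (0.04 to 0.56, p = 0.0246, adjusted p = 0.592).

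Whether the gap between clones depended on segment or mouse was tested as a difference of differences. No gene of the table passed for segment (0.0% of 16436) or for mouse (0.0% of 16428), so 0 of 10 members did. The member with the smallest p was *Axin2*, with a mean clone difference of -0.29 in 7 SI10 tumours and 0.12 in 10 SI20 tumours (limma p = 0.0317, adjusted p = 0.998). It was the only 1 of 10 with an unadjusted p under 0.05 in either test. Of all genes, 670 of 16436 had one for segment and 1218 of 16428 for mouse.

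The clones of a tumour share an animal and, in all but the tumour with 2 segment labels, a segment. Their levels can be compared across the 20 tumours after the mean of each mouse is removed. By Pearson's r, *Axin2* (r = 0.66) and *Ctnnb1* (r = 0.65) were the most alike in both clones of a tumour. The median r over 16427 genes was 0.25. Spearman's rho ranked them otherwise, at 0.65 for *Ctnnb1*, 0.57 for *Gsk3b*, 0.47 for *Myc*, 0.41 for *Tcf7l2* and 0.39 for *Axin2*. With 100000 permutations within mice, two-sided, the p of r was 0.00653 for *Axin2* and 0.00377 for *Ctnnb1*. Their adjusted p over all genes was 0.0776 and 0.0595, so neither passed. No member did (0 of 10), where 5.29% of the 16427 genes passed with a positive r, and 3 of 10 had an unadjusted p under 0.05, *Gsk3b* being the other (r = 0.47, adjusted p = 0.141). Without the 2 tumours farthest from the median, r was 0.32 for *Axin2*, 0.46 for *Ctnnb1* and 0.57 for *Gsk3b*. Within the mice, *Axin2* had r = 0.89 in the female and 0.12 in the male, *Ctnnb1* 0.24 and 0.85, and *Gsk3b* 0.59 and 0.50. Over all 20 tumours, r was 0.40 for *Myc*, 0.30 for *Tcf7l2*, 0.24 for *Tcf7*, 0.23 for *Axin1* and 0.18 for *Apc*. *Lef1* (0.11) and *Tcf7l1* (-0.07), which scatter most between clones, had the lowest.

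**Figure D3:**
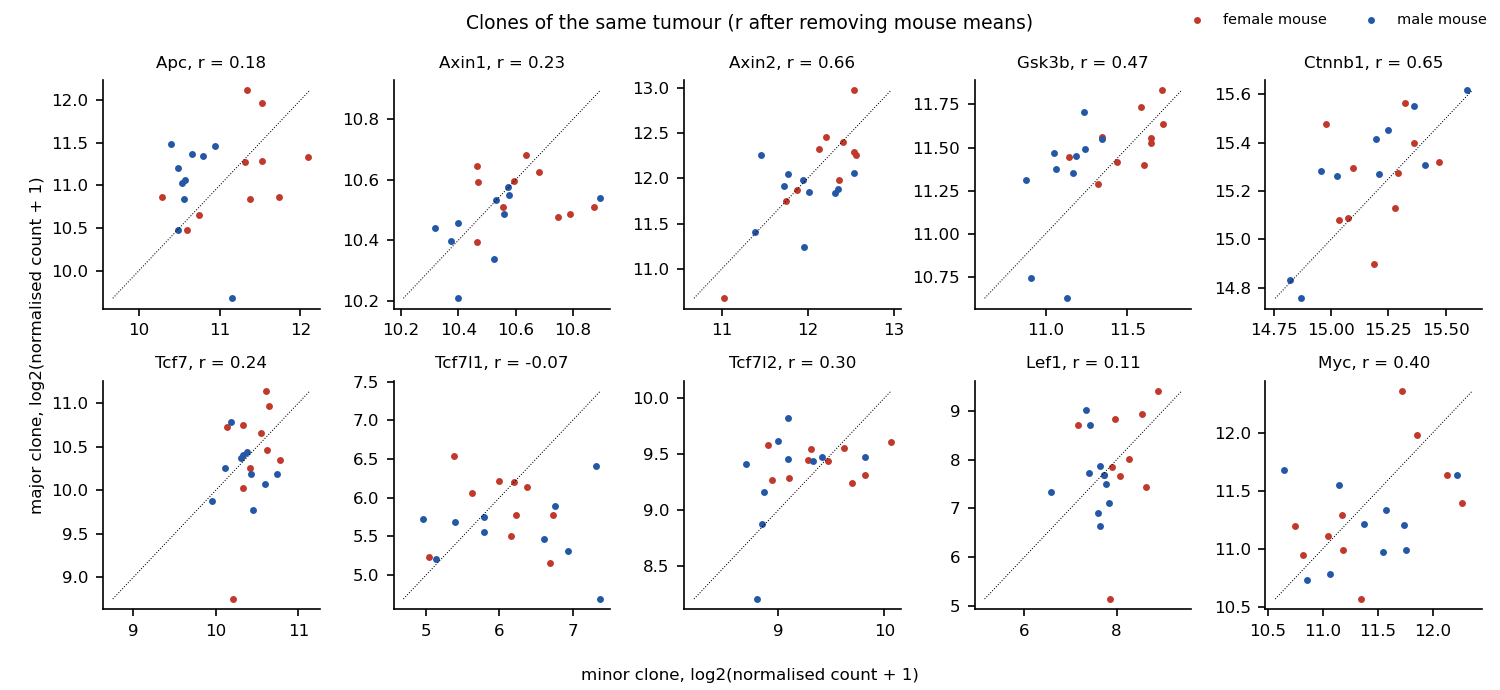
Level of each gene in the major clone (vertical axis) against the minor clone (horizontal axis) of the same tumour, both as log2(normalised count + 1), for 20 tumours, with the female mouse in red, the male mouse in blue and a dotted line where both are equal. The titles give r after mouse means are removed, from -0.07 for *Tcf7l1* to 0.66 for *Axin2*; the low point of *Lef1* and *Tcf7* is female tumour 22.

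How the genes moved relative to one another was examined in 2 sets: the levels of the 23 undivided tumours after removal of mouse means, and the major minus minor differences of the 20 divided tumours. The 45 pairs in 2 sets make 90 relations. Pearson's r ran from -0.55 to 0.85 in undivided tumours and from -0.55 to 0.88 in clone differences, and 32 of 45 pairs had the same sign in both. The permutation p was under 0.05 for 11 of 45 pairs in the first set and 12 of 45 in the second, and for 5 pairs in both: *Apc* with *Axin2* and *Tcf7l2*, *Axin2* with *Tcf7* and *Lef1*, and *Tcf7* with *Lef1*. Adjusted p-values below come from limma fits over all genes on the level of *Axin2*, *Apc*, *Myc*, *Lef1* or *Ctnnb1*. The fits on *Lef1* and *Ctnnb1* were added after the correlations were seen. In these fits many genes moved with a member. In undivided tumours the unadjusted p was under 0.05 for 2241 (*Apc*) to 5756 (*Myc*) of 16510 genes. In clone differences it was so for 1819 (*Lef1*) to 4355 (*Apc*) of 16427. The counts of pairs are therefore not a result about the members.

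**Figure D4:**
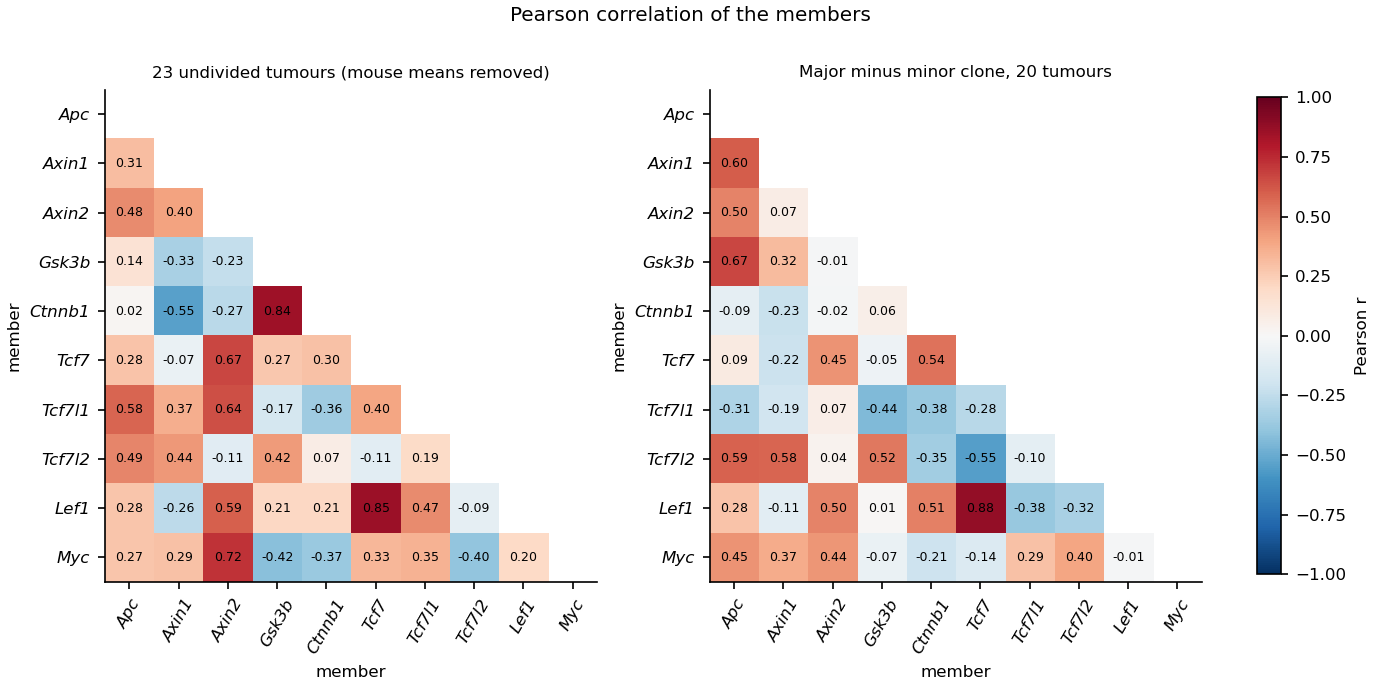
Pearson r of every pair of the 10 genes (both axes list the genes, colour from blue at -1 to red at 1), in 23 undivided tumours on the left and in 20 clone differences on the right. *Tcf7* with *Lef1* is strongly positive in both (0.85 and 0.88), and *Ctnnb1* with *Gsk3b* stands at 0.84 on the left and 0.06 on the right, a difference that was not tested.

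*Tcf7* and *Lef1* moved together in both sets. In undivided tumours r was 0.85 (rho = 0.83, permutation p = 1e-05 for each, the smallest that 100000 permutations give), and in clone differences r was 0.88 (p = 1e-05) and rho 0.80 (p = 1e-04). The relation held in each mouse, with r of 0.83 and 0.87 in undivided tumours of the female and male mouse and of 0.90 and 0.90 in clone differences. Without the 2 tumours farthest from the median of *Tcf7*, r was 0.77 and 0.79. In the fit on *Lef1*, the log2 level of *Tcf7* rose by 0.43 per unit of *Lef1* in both sets (SE 0.06 each, adjusted p = 0.000188 and 0.00442). In the fit on *Lef1* in undivided tumours, where 6.19% of genes rose and 4.28% fell, 2 of 9 other members rose, *Tcf7* and *Axin2*; *Axin2* (slope 0.38, adjusted p = 0.028) did not pass without the male tumours 2 or 5 or the female tumour 3 (adjusted p = 0.0644 to 0.119), and without male tumour 8 *Tcf7l1* passed as well. In the fit on clone differences *Tcf7* was the 1 of 9 other members called, against a background of 0.0974% of genes called with a positive and 0.0% with a negative slope; without female tumour 22 the slope was 0.38 and the adjusted p 0.134 (0.000255 to 0.833 over all alternatives, the highest in 1 mouse alone). That tumour had log2 clone differences of -2.72 for *Lef1* and -1.46 for *Tcf7*, and its clones carried different segment labels. *Tcf7* and *Lef1* are also T cell genes. The T cell list, which does not hold them, correlated negatively with both (r of -0.33 with *Tcf7* and -0.38 with *Lef1* in undivided tumours, -0.39 and -0.34 in clone differences), and the *Tcf7*–*Lef1* correlation after removal of that list was 0.83 and 0.86. Stromal genes went with both in undivided tumours (r of 0.60 and 0.60), and r was 0.77 after their removal. Whether T cells or stroma account for the relation was not tested.

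Genes known as WNT targets in the intestine were taken as a list of 18 that holds none of the 10. In undivided tumours, 10 of 18 rose with *Lef1* and 0 fell, beside the 6.19% and 4.28% of all genes. They were the feedback inhibitors *Nkd1*, *Znrf3*, *Notum*, *Apcdd1* and *Wif1*, the stem cell receptor *Lgr5*, the transcription factors *Sox9*, *Sp5* and *Prox1*, and *Tnfrsf19*. *Nkd1* had r = 0.89 with *Lef1* (adjusted p = 1.3e-05) and *Lgr5* r = 0.86 (adjusted p = 7.89e-05). The rise was not particular to the targets: 2 of the 10 stromal genes passed upwards in this fit. The unadjusted limma p was under 0.05 for 9 of 10 stromal genes, 15 of 18 targets and 4521 of all 16510 genes. The median slope was 0.687 for the stromal list and 0.569 for the targets. In clone differences 0 of 18 passed, while 13 of 18 had an unadjusted p under 0.05, as did 1819 of all 16427 genes. The mean of the list correlated with *Lef1* at 0.90 and 0.84 in the 2 sets and with *Tcf7* at 0.76 and 0.89. With *Axin2*, itself a target, it correlated at 0.40 and 0.57, and with *Myc* at 0.05 and -0.13. After removal of the list mean, *Tcf7* and *Lef1* correlated at 0.60 and 0.52. Of the other factors, *Tcf7l2* correlated with *Tcf7* at -0.11 in undivided tumours and -0.55 in clone differences, and *Tcf7l1* with *Tcf7* at 0.40 and -0.28.

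Because *Tcf7*, *Lef1* and *Axin2* moved together, their promoters are shown, as RefSeq gives them on GRCm38.p6 (windows of 250 bases before to 50 after each start; 13 windows of 7 members were in the table used, and *Apc*, *Axin1* and *Myc* were not in it). They were searched on both strands for 4 forms of the TCF/LEF motif, namely CTTTGAA or CTTTGAT or CTTTGTA or CTTTGTT (all begin alike, and no 2 can match at the same position). Of the 13 windows, 2 held a match (15.4%), against 16.9% of all 32851 windows. The windows of the second start of *Tcf7* and of starts 2 and 3 of *Lef1* held no match and are left out below. Each line gives 80 bases 5′ to 3′, ending just before the start, except the last, which is around the match at a start that lies 45997 bases into *Lef1* from its first. Capitals mark that match, TACAAAG, which begins 147 bases before the start and is CTTTGTA on the other strand.
Axin2 (chr11:108920269-108920348, + strand): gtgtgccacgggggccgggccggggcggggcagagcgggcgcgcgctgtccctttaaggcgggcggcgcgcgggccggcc
Tcf7, first start (chr11:52283015-52283094, - strand): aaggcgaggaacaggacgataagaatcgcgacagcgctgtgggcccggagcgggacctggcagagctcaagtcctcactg
Lef1, first start (chr3:131110217-131110296, + strand): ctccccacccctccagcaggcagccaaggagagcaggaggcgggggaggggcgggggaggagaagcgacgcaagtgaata
Lef1, start 4 (chr3:131156110-131156189, + strand): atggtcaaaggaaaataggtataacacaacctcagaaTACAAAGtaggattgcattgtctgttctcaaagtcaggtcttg
The other match, CTTTGTT, lay 14 bases before the second start of *Tcf7l2*, 153511 bases into the gene. A match describes letters only, and starts outside the 13 windows, of *Tcf7* or any other member, were not searched. The normalised counts cannot be assigned to 1 start of *Lef1* or *Tcf7l2*.

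*Axin2* varied with *Myc* and with 3 of the 4 TCF/LEF factors in undivided tumours. In the fit on *Axin2*, 4 of 9 members rose and 0 fell, where 9.09% of genes rose and 10.1% fell. They were *Myc* (r = 0.72, rho = 0.72, slope 0.53 with SE 0.11, adjusted p = 0.0021), *Tcf7* (r = 0.67, adjusted p = 0.00552), *Tcf7l1* (r = 0.64, adjusted p = 0.00948) and *Lef1* (r = 0.59, adjusted p = 0.0171). *Tcf7l2* had r = -0.11. Without male tumour 2, *Lef1* did not pass (adjusted p = 0.0784), and without male tumour 5, *Axin1* passed as well. *Axin2* ran from 1536 in male tumour 2, which also had the lowest *Myc* (1139), to 9726 in female tumour 3. Fewer of the 4 passed with less data: 2 (*Tcf7l1* and *Myc*) without the 2 tumours farthest from the median, 1 (*Myc*) in the male mouse alone and 0 in the female mouse alone. In clone differences 0 of 9 passed (0.0% of genes rose and 0.0183% fell), with r of 0.44 for *Myc*, 0.45 for *Tcf7*, 0.50 for *Lef1* and 0.07 for *Tcf7l1*. Permutation p was under 0.05 for *Tcf7* (0.0292) and *Lef1* (0.0165).

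Other measures moved with this group. *Axin2* correlated with the epithelial list at -0.66 and the enterocyte list at -0.61 in undivided tumours, and *Myc* at -0.68 and -0.80. The *Axin2*–*Myc* correlation was 0.50 after removal of either list, and 0.32 in clone differences. Genes with at least 10000 exonic bases, taken against genes with at most 2000, rose with *Axin2* (r = 0.65), *Tcf7* (r = 0.73) and *Lef1* (r = 0.59). After removal of this contrast of 2836 long and 2613 short genes, *Axin2* correlated with *Myc* at 0.66, with *Tcf7* at 0.38 and with *Lef1* at 0.34. Residual ribosomal RNA (*Rn18s*) correlated with *Tcf7* at -0.52 and with *Lef1* at -0.50. In clone differences the length contrast correlated with *Tcf7* at 0.23 and with *Lef1* at 0.38, and *Rn18s* at -0.41 and -0.34. The part of cell composition and RNA quality in these relations, that of *Tcf7* with *Lef1* included, was not tested.

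**Figure D5:**
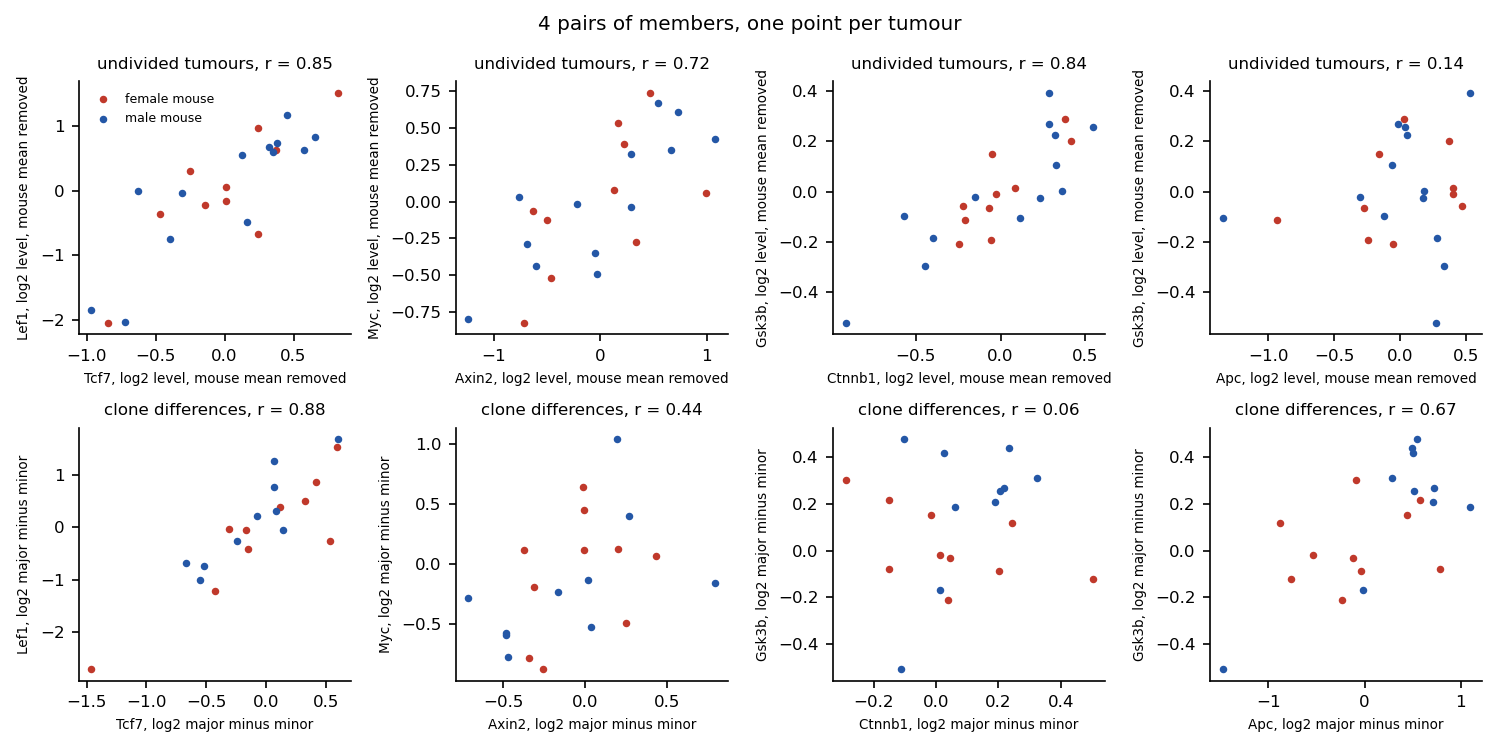
Selected pairs of genes, 1 point per tumour with the female mouse in red and the male mouse in blue: log2 levels of 23 undivided tumours with mouse means removed in the upper row, and log2 major minus minor differences of 20 tumours in the lower row, one gene on each axis. *Tcf7* and *Lef1* follow a line in both rows; r is 0.84 above and 0.06 below for *Ctnnb1* and *Gsk3b*, and 0.14 above and 0.67 below for *Apc* and *Gsk3b*, and these differences between rows were not tested.

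*Myc* had a wide set of companions. In undivided tumours 9.64% of genes rose and 12.1% fell with it, and in clone differences 4.01% rose and 2.75% fell. Among the members only *Axin2* passed, in undivided tumours (1 of 9; slope 0.98, adjusted p = 0.00136), and 0 of 9 did in clone differences. Of the 18 targets, the stem cell factor *Ascl2* rose with *Myc* in undivided tumours (r = 0.82, adjusted p = 0.000109) and in clone differences (r = 0.84, adjusted p = 0.00257). *Rnf43* and *Ccnd1* rose with it in undivided tumours (adjusted p = 0.0125 and 0.00449). Outside the members, the 3 genes most like *Myc* over the undivided tumours were *Hsp90ab1* (r = 0.92, and 0.87 in clone differences), which encodes a chaperone, *Polr3e* (0.92 and 0.70), a subunit of RNA polymerase III, and *Pabpc4* (0.92 and 0.93), a poly(A)-binding protein. Those most like *Axin2* were *Zfp146* (0.96 and 0.59), *Bcl7a* (0.93 and 0.48) and *Rnf216* (0.91 and 0.48).

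*Ctnnb1* followed *Gsk3b* in undivided tumours (r = 0.84, rho = 0.83, permutation p = 1e-05, the smallest possible; slope 0.50 with SE 0.09, adjusted p = 0.000273). In clone differences r was 0.06 (permutation p = 0.777), and the difference between the sets was not tested. In undivided tumours it stood at 0.83 in the female and 0.85 in the male mouse. In that fit 13.2% of genes rose and 8.67% fell, and *Axin1* was the other member called, downwards (r = -0.55, adjusted p = 0.0499). The *Axin1* call was lost when any of 16 of the 23 tumours was left out (adjusted p = 0.0506 to 0.15), and the correlation had the other sign in the female mouse alone (r = 0.19). In clone differences 0 of 9 members passed, where 0.195% rose and 0.0426% fell; r was 0.54 with *Tcf7* and 0.51 with *Lef1*. *Ctnnb1* is also a part of adherens junctions, where β-catenin links E-cadherin to α-catenin. The genes most like it over undivided tumours were *Cdh1*, which encodes E-cadherin (r = 0.94, and 0.52 in clone differences), *Ctnna1*, which encodes α-catenin (0.94 and 0.49), and *Ascc2* (0.94 and 0.47). The epithelial list, which holds *Cdh1*, correlated with *Ctnnb1* at 0.85 and with *Gsk3b* at 0.72, and their correlation after its removal was 0.64. *Rn18s*, which reports ribosomal RNA left in a library, correlated with *Ctnnb1* at -0.64 in undivided tumours and at -0.68 in clone differences, and the *Ctnnb1*–*Gsk3b* value after its removal was 0.78. Whether these measures account for the relation was not tested.

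In undivided tumours 0.315% of genes rose and 0.0545% fell with *Apc*, and 0 of 9 members passed. In clone differences 5.98% rose and 4.27% fell. In these, *Gsk3b* passed (1 of 9; r = 0.67, rho = 0.52, permutation p = 0.0154, slope 0.26 with SE 0.08, adjusted p = 0.0357), against r = 0.14 in undivided tumours, a difference that was not tested. The call depended on male tumour 19, in which the major clone was at 817 for *Apc* and 1578 for *Gsk3b* and the minor clone at 2271 and 2241: without it the slope was 0.20 and the adjusted p 0.252 (0.0181 to 0.879 over all alternatives). The call was also lost without female tumour 26 or male tumours 28, 29 or 31 (adjusted p = 0.0519 to 0.0528), and r was 0.22 in the female and 0.82 in the male mouse. Without male tumour 22, female tumour 22 or female tumour 23, *Tcf7l2* passed as well. *Apc* correlated positively with *Axin2* (0.48 and 0.50) and *Tcf7l2* (0.49 and 0.59) in both sets, with permutation p of 0.0235, 0.0317, 0.0239 and 0.0103, none of which passed in limma over all genes as fitted here. Under quantile normalisation *Apc* passed in the fit on *Axin2* in undivided tumours (adjusted p = 0.032, against 0.0786). Clone differences of *Apc* with *Axin1* had r = 0.60, and with *Myc* 0.45. The highest r of *Apc* in undivided tumours was with *Tcf7l1* (0.58, permutation p = 0.00511, adjusted p = 0.145 in limma). In clone differences that pair had the other sign (r = -0.31, permutation p = 0.202).

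The contrast of long and short genes moved with *Apc*, whose exons cover 17959 bases: r was 0.54 in undivided tumours and 0.75 in clone differences. After its removal, *Apc* with *Axin2* stood at 0.19 and 0.24, and *Apc* with *Gsk3b* in clone differences at 0.49. The genes most like *Apc* over undivided tumours were *Kif21b*, which encodes a kinesin (0.84, and 0.46 in clone differences), *Rsf1*, a chromatin remodelling factor (0.83 and 0.55), and *Bod1l* (0.82 and 0.86). Of 27 β-catenin and TCF cofactors, 8 rose and 2 fell with *Apc* in clone differences, beside 5.98% and 4.27% of all genes. Those that rose included the co-activator *Bcl9l* (slope 0.60, adjusted p = 0.00581) and the acetyltransferases *Crebbp* (0.76, adjusted p = 0.0179) and *Ep300* (0.55, adjusted p = 0.0133). *Chd8* rose as well (0.64, adjusted p = 0.00631), while *Pygo1* fell (-1.55, adjusted p = 0.0447). How these calls behave without male tumour 19 was not examined. *Bcl9l* also rose with *Apc* in undivided tumours (0.93, adjusted p = 0.0154), the 1 of 27 that passed there. Of all genes, 0.315% rose and 0.0545% fell there. Enterocyte genes ran the other way in clone differences, where the list correlated with *Apc* at -0.58. Of its 8 genes, 7 had an unadjusted p under 0.05, as did 4355 of all 16427 genes, and 1 passed, downwards. The median slope of the list was -0.735, against -0.00437 for all genes. Whether transcript length or enterocyte content accounts for these values was not tested.

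The wider machinery gave few differences between groups. Of 32 tested partners of the destruction complex (kinases, phosphatase 2A subunits, ubiquitin ligase parts, tankyrases and DVL proteins), 2 were higher in undivided tumours than in minor clones, the phosphatase subunits *Ppp2r5c* (log2 difference 0.25, adjusted p = 0.0171) and *Ppp2r5a* (0.19, adjusted p = 0.0463). With 3.7% of all genes called there, 2 of 32 is not a result about the list. In each of the other 4 comparisons 0 of 32 passed. The unadjusted p was under 0.05 for 5 of 32 between major and minor clones, beside 3680 of 16428 genes, and for 9 of 32 between undivided tumours and major clones, beside 1973 of 16510. Of the 27 cofactors and the 18 targets, 0 passed in each of the 5 comparisons. The median log2 difference of the 18 targets was -0.09 between major and minor clones and -0.30 between undivided tumours and minor clones, where the medians of all genes were 0.00739 and -0.0145. Of 15 genes of the MYC network, *Mlxipl*, a glucose-responsive transcription factor, was higher in undivided tumours than in minor clones (0.83, adjusted p = 0.0242), which is 1 of 15 beside the same 3.7%, and 0 of 15 passed in the other 4. T cell genes differed in that comparison too: 2 of 14 were higher in undivided tumours, and the median log2 difference of the list was 0.54. With that list as a covariate, limma called 0 of 16491 genes between undivided tumours and minor clones, against 610 without it (2014 and 3226 had an unadjusted p under 0.05). With the stroma list or *Rn18s* as the covariate it called 760 and 1455.

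On GRCm39, the 10 genes lie on 9 chromosomes. *Apc* is at chr18:34353942-34455605 (+ strand), *Ctnnb1* at chr9:120757422-120789579 (+), *Axin1* at chr17:26350235-26414789 (+) and *Gsk3b* at chr16:37909363-38066446 (+). *Axin2* at chr11:108811169-108841609 (+) and *Tcf7* at chr11:52143107-52174619 (-) share a chromosome. *Tcf7l1* is at chr6:72603354-72766589 (-), *Tcf7l2* at chr19:55730188-55922091 (+), *Lef1* at chr3:130903919-131018005 (+) and *Myc* at chr15:61857227-61862223 (+).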

How the data were processed

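Per the labels and the study's methods, the authors prepared stranded polyA libraries, trimmed reads with Trimmomatic 0.39, checked alignments (STAR 2.7.7a, Picard 2.27.3, FastQC 0.11.9) and estimated gene counts with Salmon 1.9.0 on Gencode for GRCm39. The deposited table is a signal per gene: the authors scaled these counts between libraries, in a way not stated beyond their use of DESeq2. Values are not whole, so depth is unknown, and gene length corrections may remain in them. All columns were used. Undivided and dissected libraries were told apart by their titles, and major and minor by the study's source data, because the labels do not give the class.

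Members and lists were chosen with earlier results of these data known. Genes with a mean of at least 10 were fitted as log2(value + 1) in limma 3.58.1 (R 4.3.3, eBayes with trend; without trend for differences), with tumour as a block for paired clones and mouse as a covariate elsewhere. Fold changes on this scale understate those of low genes. Adjusted p-values are Benjamini-Hochberg over all genes, with a threshold of 0.05. Correlations used 100000 permutations within mice, two-sided. Named genes are the members, up to 6 called genes per list (otherwise the largest each way) and the 3 most like *Axin2*, *Apc*, *Myc* and *Ctnnb1*; the targets of *Lef1* and the extreme libraries were chosen after their values were seen. Pairs share a tumour number in the titles: deviations of paired clones from their class means had a median r of 0.21 (-0.10 to 0.56), and 16 of 20 pairs were above 0.1. The fits were tested on simulated data. Alternatives covered the pseudocount, filter, scaling, block, covariates, each mouse and left-out tumours. Python 3.11.15, numpy 2.4.6, scipy 1.17.1, pandas 2.3.3 and matplotlib 3.10.9 were used.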

Additional observations from a re-analysis of the deposited data

How the results depend on the processing

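No member passed between major and minor clones, or between undivided tumours and either class, under any of the 15, 13 and 13 alternatives or with any tumour or library left out. Without the replicate block (the pairing by tumour) 0 of 10 members passed between major and minor clones, and 1 of 16428 genes did, against 188 with it; a signed-rank test called 48 and limma with *Rn18s* as a covariate 1. Segment comparisons also stayed at 0 members except that divided tumours gave 0 to 1 (*Apc*) on leaving out 1 tumour. Scaling each library to the same sum moved the median log2 difference of all genes between SI10 and SI20 undivided tumours from 0.000384 to -0.11. Between undivided tumours and major clones it moved from -0.00972 to -0.0985, and against minor clones from -0.0145 to -0.108. Small differences in these comparisons are therefore relative to the scaling. Of 150 values of the members under alternatives in the paired comparison, 5 had the other sign (*Apc*, *Ctnnb1* and *Lef1*). Between undivided tumours and major clones, 21 of 130 values did, from all members but *Apc*, *Axin1* and *Tcf7l1*. Against minor clones 17 of 130 did, from all members but *Tcf7l1* and *Lef1*. None of these values was called.

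Fits on a member's level were less stable. Members called, against 4 for *Axin2* in undivided tumours, were 0 in the female mouse alone, 1 in the male mouse alone 2 without the 2 tumours farthest from the median, 6 under quantile normalisation (*Apc* and *Axin1* besides the 4), and 3 to 5 on leaving out 1 tumour. Against 2 for *Lef1* and 2 for *Ctnnb1* in undivided tumours, the same settings gave 0, 1 and 1 for each, and 1 to 3 and 1 to 2 on leaving out 1 tumour; quantile normalisation gave 2 for *Lef1* and 3 for *Ctnnb1* (*Gsk3b*, *Tcf7* and *Lef1*, without *Axin1*). Against 1 for *Apc* and 1 for *Lef1* in clone differences they gave 0, 0 and 0, and 0 to 2 and 0 to 1. For *Myc* in undivided tumours the female mouse alone gave 0 against 1. The slope of *Axin1* on *Ctnnb1* was -0.33 and became 0.13 in the female mouse alone. Fits in 1 mouse hold 10 to 13 tumours; the cause of lost calls was not tested. Fits on *Lef1* and *Ctnnb1*, leaving out tumours in the fits on a level, and removal of other measures were added after the data were seen. Depth is unknown, and *Tcf7l1*, at 4.23 counts in its lowest library, is the member it limits most.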
